A study of Sus scrofa with 9 samples.

Results

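The genes described here code for the parts of the NLRP3 inflammasome (NLRP3, PYCARD and CASP1), for the interleukins IL1A, IL1B, IL6, IL10 and IL18, and for TNF. They belong to a list of 10 symbols named by symbol, and 9 of the 10 were found among the 21357 genes of the expression table. Their symbol was given for 8 genes, and IL1B had no symbol and was identified by the NCBI gene ID in its description. IL1RN was not analysed here. The libraries were made from the abdominal aorta of male Tibetan minipigs and fall into 3 groups of 3 libraries, labelled as separate replicates. The NC group received a normal diet for 24 weeks. The H8 group received a high-fat diet for 8 weeks and is labelled as hypercholesterolemia, and the H24 group received a high-fat diet for 24 weeks and is labelled as atherosclerosis. The published methods describe the NC and H24 animals, with a diet enriched in shortening, cholesterol and egg yolk, and no group stopped at 8 weeks. There was no control group at 8 weeks, so time on the diet and the animals' age cannot be told apart where H8 is compared with another group.

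The NLRP3 inflammasome is a protein complex of innate immune cells, above all of macrophages. The sensor NLRP3 recruits the adaptor ASC (gene PYCARD), which brings in pro-caspase-1 (gene CASP1), and active caspase-1 cuts the precursors of IL-1 beta and IL-18 into their secreted forms. IL-1 alpha, by contrast, is active without this cut. In the arterial wall cholesterol crystals are a known trigger of the complex, TNF and IL-1 make the endothelium adhesive for leukocytes, IL-6 is made by smooth muscle cells and fibroblasts as well as by leukocytes, and IL-10 restrains macrophage activation. RNA levels give the supply of these transcripts, not the assembly of the complex or the secretion of a cytokine.

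The libraries held between 44094263 and 75787978 counts. H24 replicate 3 stood apart: across genes its log2 CPM correlated with the other H24 libraries at r = 0.918 and 0.891, against 0.962 between those. A list of 12 macrophage markers summed to between 29.2 and 48.3 FPKM in NC, to 273, 43.7 and 160 FPKM in H8, and to 367, 222 and 2594 FPKM in H24. H8 replicate 2 thus lay within the NC range of macrophage markers, and H24 replicate 3 lay far above every other library. None of the 12 macrophage markers was at 0 in any library. Smooth muscle markers, which define the tissue, summed to between 8216 and 14007 FPKM in 8 libraries and to 1755 FPKM in H24 replicate 3. Neutrophil markers reached 62.3 FPKM in that library and at most 8.88 FPKM elsewhere, with S100A8, S100A9, S100A12 and MPO at 0 in some library. T cell markers summed to between 1.65 and 2.36 FPKM in NC and H8 and to 5.16, 19.7 and 17.2 FPKM in H24, with CD3D and CD3G at 0 in some library. Endothelial markers ranged from 52.5 to 167 FPKM and fibroblast markers from 1441 to 3750 FPKM. Adipocyte markers ranged from 55.5 to 218 FPKM, with PLIN1 at 0 in some library; the labels' extraction protocol speaks of adipose material. In bulk tissue, fewer cells of a type and less RNA per cell cannot be told apart. The part of each cell type in the results was not tested.

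After 24 weeks of the high-fat diet, 7 of the 9 genes were up-regulated over NC: NLRP3, PYCARD, CASP1, IL18, IL10, TNF and IL1B. A gene was called at a log2 fold change beyond 1 with an unadjusted p below 0.05 in edgeR's quasi-likelihood test, and 9.95% of the 14828 genes tested were called higher in H24 by this rule. These thresholds follow the published methods. The p-values printed with the fold changes are edgeR's Benjamini-Hochberg adjusted values over all genes tested, so a called gene can carry an adjusted p above the threshold. NLRP3, PYCARD, CASP1, IL10 and IL18 were 28.0 to 36.5-fold higher than in NC, whereas TNF and IL1B were 5.62 and 4.91-fold higher. The gap between them depended in part on H24 replicate 3, least so for IL18. Without it the log2 fold changes were 2.85 for PYCARD, 3.13 for CASP1, 3.32 for NLRP3, 3.69 for IL10 and 4.35 for IL18, against 2.24 for TNF and 1.72 for IL1B, and all 7 genes were still called. The median log2 fold change was 4.81 over the 9 genes and 0.01 over all genes tested. In 7 of the 9 genes every H24 library lay above every NC library, which held for 12.8% of all genes tested. IL1B, IL18, TNF and IL10 had a mean below 0.1 FPKM in NC and passed the expression filter only through H24. For them the order of the libraries is no support of its own. The share of genes with this order was not computed without the filter. Without the filter the same number of genes, 7 of 9, was called, against 8.69% of all genes. No gene of the 9 passed an adjusted p of 0.05 in any comparison (edgeR, lowest adjusted p 0.132 in H24/NC, 0.192 in H8/NC and 0.341 in H24/H8). Over all genes, 0% passed it together with the fold change in H24/NC, although 2055 genes had an unadjusted p below 0.05, and 0.0279% and 0.0135% passed in H8/NC and H24/H8.

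After 8 weeks, 6 of the 8 genes tested were up-regulated over NC, against 5.11% of 14336 genes: IL18, CASP1, IL1B, NLRP3, PYCARD and TNF. Their folds lay between 3.69 and 11.6. In 6 of the 8 genes the H8 libraries lay wholly above the NC libraries, against 6.91% of all genes tested. These included IL1A, which was not called, and not PYCARD. IL1B, IL18 and TNF had a mean below 0.1 FPKM in NC and passed the expression filter only through H8. For these genes the order of the libraries is no support of its own, and the share of such genes without the filter was not computed. IL10 fell below the filter in this comparison and was not called without it (log2 fold change 2.003, SE 1.52, adjusted p = 0.582), where 6 of 9 genes were called, against 4.57% of all genes. Leaving out 1 library moved this count to 3 in 2 cases: CASP1, IL1B and NLRP3 were called without NC replicate 3, and IL1B, NLRP3 and TNF without H8 replicate 1. It was 4 without H8 replicate 2, the library with few macrophage markers. Over all genes, 569 of 14363 were called higher without NC replicate 3 and 678 of 14377 without H8 replicate 1. Without H8 replicate 2 it was 591 of 14384. IL1B and NLRP3 were called in every one of the 6 fits that left out a library.

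Between 8 and 24 weeks, 3 of the 9 genes were up-regulated (PYCARD, IL10 and NLRP3), against 7.22% of 14788 genes, and the folds were 6.41 to 7.87. Only PYCARD and IL10 had every H24 library above every H8 library, as did 15.5% of all genes. CASP1 (log2 fold change 2.45, SE 1.07, adjusted p = 0.373) and IL18 (1.61, SE 0.77, adjusted p = 0.392) were higher in H24 on average and were not called; without the filter CASP1 was also called, which made 4 of 9, against 6.53% of all genes. This count depended on single libraries. None of the 9 genes was called without H24 replicate 3, H8 replicate 2 or H8 replicate 3, and 5 were called without H24 replicate 2. Over all genes, 547 of 14589, 556 of 14892 and 617 of 14752 were called higher in the first 3 of these fits. Without H24 replicate 2 it was 1407 of 14715. Without H24 replicate 3 the log2 fold changes fell to 0.94 for PYCARD, 1.17 for NLRP3 and 1.67 for IL10. Without H8 replicate 2 or 3 they lay between 2.27 and 3.34. All 3 comparisons share libraries with each other, so their values are given side by side.

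The scaling of the libraries bore on the comparisons with H8. With library size alone in place of TMM factors, the median log2 fold change of all genes was -0.13 rather than 0.01 in H8/NC and 0.24 rather than 0.04 in H24/H8. The share of called genes that were up-regulated was then 55.7% rather than 69.2% in H8/NC and 83.3% rather than 70.3% in H24/H8. Of the 9 genes, IL1B in H24/H8 changed sign under this scaling, from -0.05 to 0.16, and the others kept their direction in the comparisons in which they were tested.

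**Figure D1:**
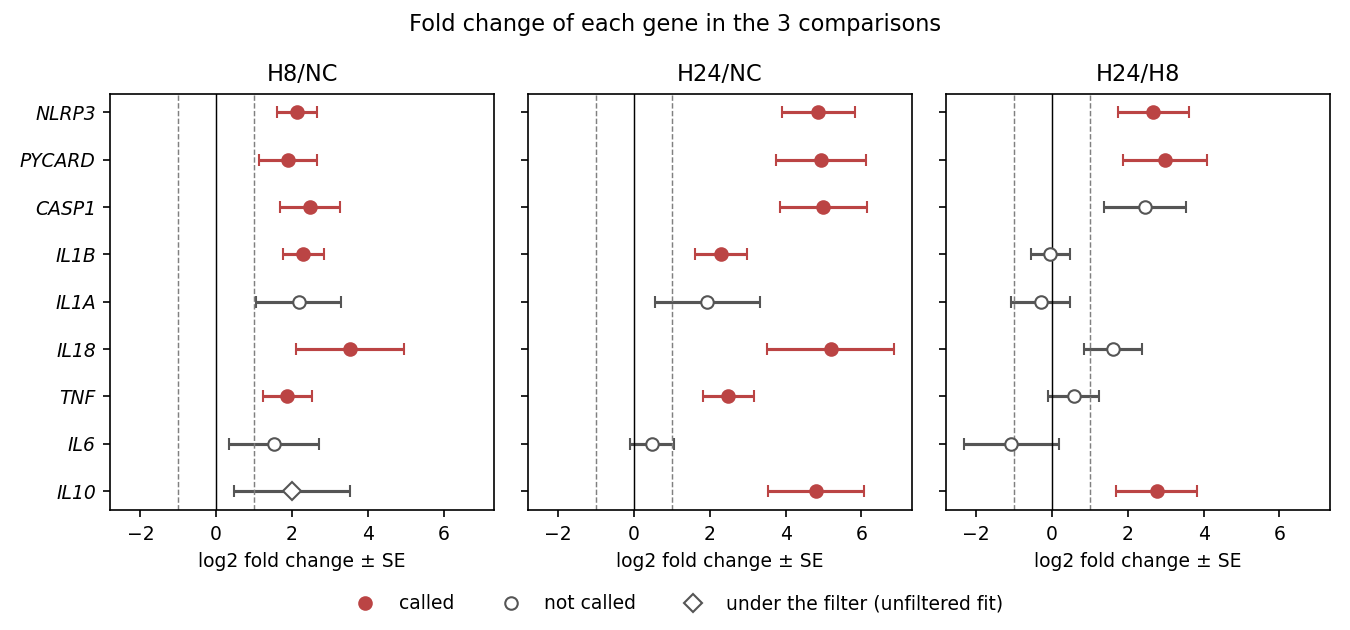
The log2 fold change of each of the 9 genes (points) with its standard error (bars) in H8/NC, H24/NC and H24/H8. Filled red points were called, open points were not, the diamond is IL10 in the fit without the expression filter, dashed lines mark a log2 fold change of 1 in size. In H24/NC the genes NLRP3, PYCARD, CASP1, IL18 and IL10 lie near 5 and TNF and IL1B near 2.4; in H24/H8 the points of IL1B and IL1A lie close to 0.

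The sensor, the adaptor and the protease of the inflammasome were each higher in both fed groups than in NC. NLRP3 (ENSSSCG00000013940, chromosome 2, 56892803 to 56978010, minus strand, coordinates of the pig assembly named in the study's methods) stood at 0.312, 0.230 and 0.339 FPKM in NC replicates 1 to 3, at 1.85, 0.410 and 1.33 FPKM in H8, and at 4.47, 1.57 and 19.98 FPKM in H24. All H8 and H24 libraries lay above NC, H8 replicate 2 was close to NC, and H24 replicate 3 was the highest. NLRP3 was 4.38-fold higher in H8 than in NC (log2 2.13, SE 0.53, adjusted p = 0.204) and 29.1-fold higher in H24 (log2 4.86, SE 0.96, adjusted p = 0.132). H24 replicate 2 at 1.57 FPKM lay between H8 libraries, so H24 and H8 overlapped, although the gene was called in H24/H8 (6.41-fold, log2 2.68, SE 0.95, adjusted p = 0.341). An unnamed gene on the other strand shares 7312 bases with the 85208 bases of NLRP3, and its level was at most 0.265 FPKM.

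PYCARD (ENSSSCG00000040811, chromosome 3, 17306124 to 17309555, plus strand), the adaptor that links sensor and protease, was measured at 0.389, 0.101 and 0.163 FPKM in NC, at 0.975, 0.176 and 1.14 FPKM in H8, and at 1.52, 1.67 and 17.0 FPKM in H24. The H24 libraries lay above all others, while H8 replicate 2 fell inside the NC range. PYCARD was 30.6-fold higher in H24 than in NC (log2 4.94, SE 1.18, adjusted p = 0.146), 3.74-fold higher in H8 than in NC (log2 1.90, SE 0.77, adjusted p = 0.316) and 7.87-fold higher in H24 than in H8 (log2 2.98, SE 1.11, adjusted p = 0.341). The H8/NC call was lost in 4 of the 6 fits that left out a library.

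CASP1 (ENSSSCG00000028711, chromosome 9, 35187561 to 35200085, minus strand), the protease that matures IL-1 beta and IL-18, stood at 0.389, 0.0984 and 0.353 FPKM in NC, at 2.87, 0.469 and 0.997 FPKM in H8, and at 3.55, 1.49 and 22.0 FPKM in H24. H8 replicate 1 lay above H24 replicate 2, and NC lay below both fed groups. The gene was 5.56-fold higher in H8 than in NC (log2 2.48, SE 0.78, adjusted p = 0.24) and 31.7-fold higher in H24 than in NC (log2 4.99, SE 1.15, adjusted p = 0.136). In the H24/NC fit without H24 replicate 3, NLRP3 alone of the 9 genes passed the adjusted threshold, with an adjusted p of 0.0181 by edgeR. Over all genes, 306 of 14578 passed it in that fit, against 0 with all libraries.

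**Figure D2:**
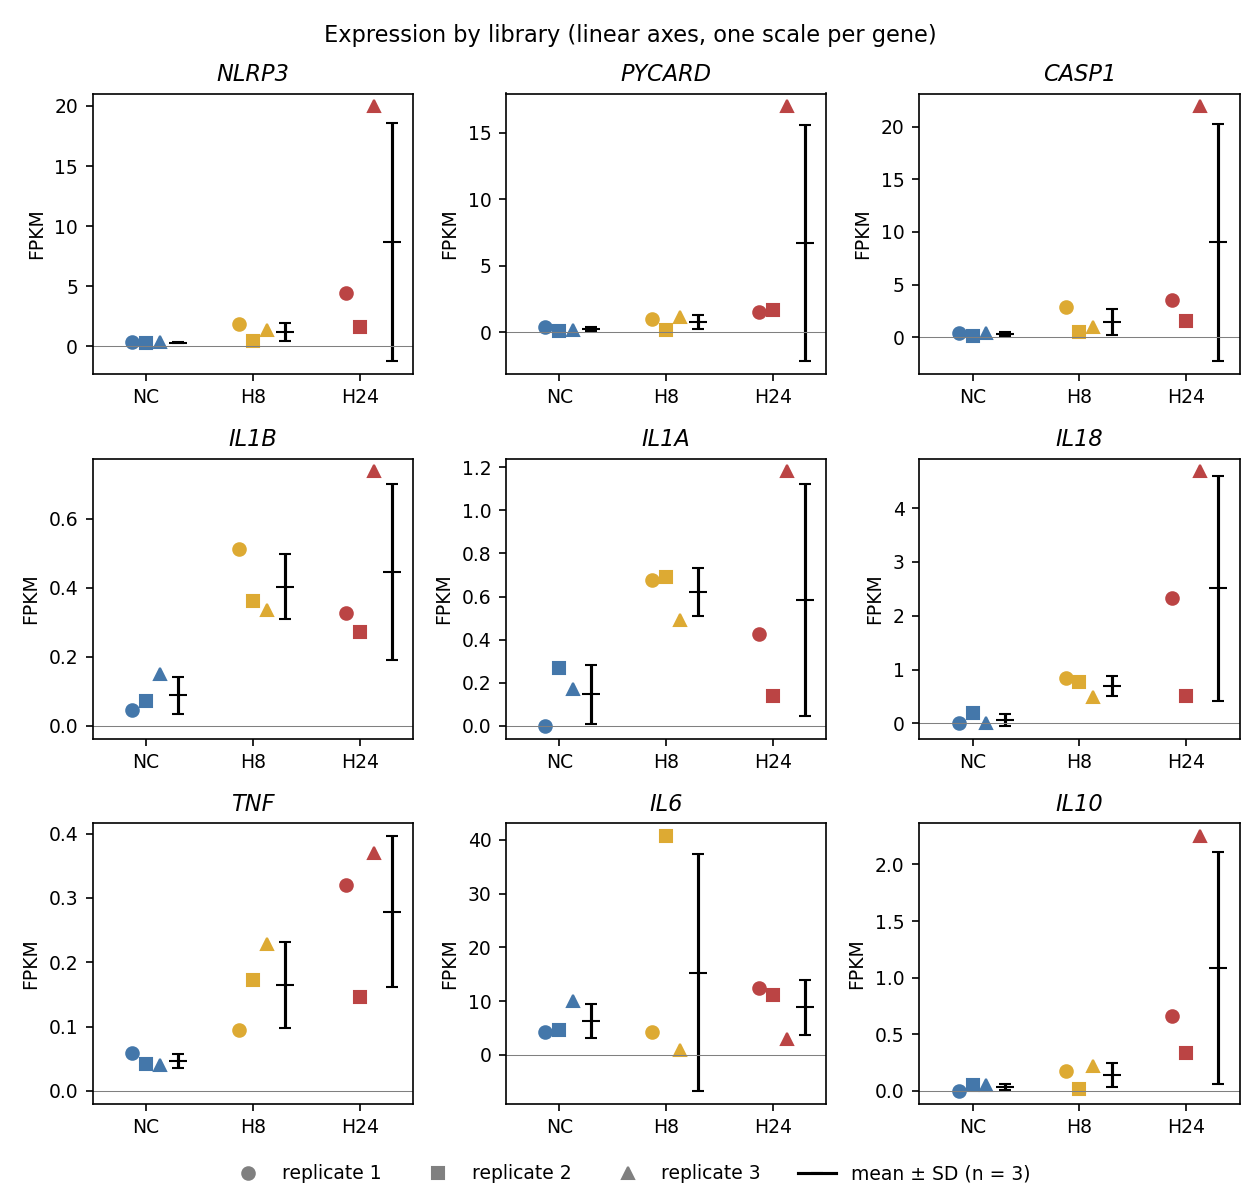
FPKM of each gene in the 9 libraries by group (NC, H8, H24; linear axes with a scale for each gene; circles, squares and triangles are replicates 1, 2 and 3; black bars are the group mean ± SD, n = 3). H24 replicate 3 is the highest library for 8 of the 9 genes, and H8 replicate 2 is the highest for IL6 at 40.7 FPKM.

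The mean levels of the IL-1 cytokines were close to each other in H8 and H24, at 0.403 and 0.446 FPKM for IL1B and at 0.620 and 0.582 FPKM for IL1A. H24 replicate 3 raised both H24 means, and without it the H24/H8 log2 fold change was -0.59 for IL1B and -1.30 for IL1A, neither of them called. IL1B (ENSSSCG00000039214, chromosome 3, 43669951 to 43681452, plus strand), the main substrate of caspase-1, was low in all libraries, so its counts are given: 20, 35 and 62 in NC, 224, 157 and 162 in H8, and 139, 78 and 288 in H24. These correspond to 0.0472, 0.0709 and 0.149 FPKM in NC, 0.512, 0.361 and 0.337 FPKM in H8, and 0.327, 0.273 and 0.738 FPKM in H24. Every library of both fed groups lay above NC, and the 2 fed groups overlapped. IL1B was 4.94-fold higher in H8 than in NC (log2 2.30, SE 0.53, adjusted p = 0.192) and 4.91-fold higher in H24 than in NC (log2 2.30, SE 0.68, adjusted p = 0.217). H24 and H8 differed by -0.05 on the log2 scale (SE 0.51, adjusted p = 0.976), a value whose sign turned under 7 of the alternatives. RefSeq lists a near-identical second pig gene, IL1B2, on a sequence outside the chromosomes of the table, and how reads were shared between the copies is not given in the sources used here.

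IL1A (ENSSSCG00000008090, chromosome 3, 43718427 to 43731120, plus strand) lies 36974 bases from IL1B and codes for the form that needs no caspase-1. Its counts were 0, 40 and 22 in NC, 90, 91 and 72 in H8, and 55, 13 and 140 in H24. The FPKM were 0, 0.269 and 0.171 in NC, 0.678, 0.691 and 0.491 in H8, and 0.424, 0.140 and 1.18 in H24. The H8 libraries lay above NC and close to each other, whereas H24 spanned from inside the NC range to the highest value of all. IL1A was not called in any comparison (H8/NC log2 2.18, SE 1.13, adjusted p = 0.414; H24/NC 1.93, SE 1.38, adjusted p = 0.583; H24/H8 -0.30, SE 0.78, adjusted p = 0.883). It was called in H8/NC without NC replicate 1 (log2 1.60), the library with a count of 0, and with all libraries by limma on log2(FPKM + 0.1) (log2 1.73). The deposited counts are estimates, and of 853 genes whose highest NC count lay between 20 and 40, 27.3% were listed at 0 in another NC library.

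IL18 (ENSSSCG00000015037, chromosome 9, 39839118 to 39861196, minus strand), the second substrate of caspase-1, had counts of 0, 21 and 0 in NC, 85, 76 and 54 in H8, and 226, 34 and 416 in H24. The FPKM were 0, 0.190 and 0 in NC, 0.847, 0.768 and 0.492 in H8, and 2.34, 0.517 and 4.69 in H24. Each fed library lay above NC, and H24 replicate 2 lay inside the H8 range. A count of 0 allows up to 3 counts, or between 0.0396 and 0.0680 CPM in these libraries, for counting error alone. IL18 was 36.5-fold higher in H24 than in NC (log2 5.19, SE 1.68, adjusted p = 0.257) and 11.6-fold higher in H8 than in NC (log2 3.53, SE 1.43, adjusted p = 0.316). The standard errors were the largest of the called genes in both comparisons, and the H8/NC call held in 2 of the 6 fits that left out a library. Within libraries, the ratio of IL18 to IL1B had a mean log2 of -0.37 in NC, 0.66 in H8 and 1.92 in H24 (SD 1.05, 0.24 and 1.03, n = 3, on FPKM + 0.1). The H24 minus NC difference of 2.29 had an exact permutation p of 0.2, two-sided, where 0.1 is the smallest that 3 against 3 libraries allow. With a pseudocount of 1 FPKM the difference was 1.14 (exact permutation p = 0.1), since IL18 is listed at 0 in 2 NC libraries and the pseudocount sets the ratio there. For the ratio of IL1A to IL1B the means were 0.22, 0.52 and 0.09, and no pair of groups differed by more than 0.43 (exact permutation p from 0.4 to 0.9).

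TNF (ENSSSCG00000001404, chromosome 7, 23699561 to 23703534, plus strand), the cytokine that activates the endothelium through its receptors TNFR1 and TNFR2, had the lowest mean FPKM of the 9 genes in H24. Its counts were 13, 10 and 8 in NC, 20, 36 and 53 in H8, and 66, 21 and 70 in H24. The FPKM were 0.0596, 0.0413 and 0.0400 in NC, 0.0944, 0.172 and 0.228 in H8, and 0.320, 0.146 and 0.370 in H24. NC lay below all fed libraries, and H8 and H24 overlapped. TNF was 3.69-fold higher in H8 (log2 1.88, SE 0.64, adjusted p = 0.264) and 5.62-fold higher in H24 (log2 2.49, SE 0.68, adjusted p = 0.182) than in NC, and was not called between H24 and H8 (log2 0.58, SE 0.68, adjusted p = 0.715). The H8/NC call was lost in 2 of the 4 fits without 1 library in which TNF passed the filter, and also with a replicate block and by limma on log2(FPKM + 0.1). All 3974 bases of TNF lie inside the annotated span of LTB, lymphotoxin beta, on the other strand, and LTB ranged from 0.0528 to 0.551 FPKM in NC and H8 and from 0.836 to 1.22 FPKM in H24. The strand setting of the counting is not given in the sources used here, and without it reads of the 2 genes cannot be told apart where they overlap.

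IL6 (ENSSSCG00000020970, chromosome 9, 91506340 to 91511491, plus strand) had the highest FPKM of the 9 genes in NC, with 4.19, 4.59 and 9.94 FPKM. In H8 it stood at 4.29, 40.7 and 0.926 FPKM and in H24 at 12.4, 11.2 and 2.86 FPKM. The H8 group held both the highest and the lowest library of the 9, and the groups overlapped in each comparison. IL6 was not called in any of them (H24/NC log2 0.47, SE 0.59, adjusted p = 0.773; H8/NC 1.53, SE 1.18, adjusted p = 0.585; H24/H8 -1.07, SE 1.26, adjusted p = 0.716). H8 replicate 2 decided the sign of both comparisons with H8: without it the log2 fold change was -1.17 in H8/NC and 1.63 in H24/H8. IL6 was lowest in H8 replicate 3 and, within H24, in replicate 3, the library with the highest macrophage markers.

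IL10 (ENSSSCG00000015652, chromosome 9, 67400727 to 67405378, minus strand), which dampens the other cytokines, had few counts outside H24. Its counts were 0, 6 and 5 in NC, 18, 2 and 24 in H8, and 63, 22 and 196 in H24. The FPKM were 0, 0.0535 and 0.0491 in NC, 0.175, 0.0183 and 0.218 in H8, and 0.664, 0.333 and 2.25 in H24. All 3 H24 libraries lay above the other 6, and H8 replicate 2 fell inside the NC range. IL10 was 28.0-fold higher in H24 than in NC (log2 4.81, SE 1.27, adjusted p = 0.171) and 6.79-fold higher in H24 than in H8 (log2 2.76, SE 1.06, adjusted p = 0.342). An unnamed gene on the other strand spans all 4652 bases of IL10, and it was above 0 in H8 replicate 2 (0.319 FPKM) and H24 replicate 2 (0.104 FPKM) alone.

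The 9 genes differed in how they stood beside macrophage markers in the same library. The median log2 fold change of the 12 macrophage markers was 4.83 in H24/NC (12 of 12 up-regulated), 2.03 in H8/NC (8 of 12) and 2.75 in H24/H8 (11 of 12). IL10, NLRP3, PYCARD and CASP1, with 4.81, 4.86, 4.94 and 4.99 in H24/NC, lay within 0.2 of that median. Without H24 replicate 3 the median of the markers was 2.81 in H24/NC (11 of 12 up-regulated) and 1.05 in H24/H8 (1 of 12, CD14). In H24/NC without that library IL10, NLRP3, CASP1 and PYCARD were at 3.69, 3.32, 3.13 and 2.85. Only PYCARD still lay within 0.2 of the marker median there. Measured as log2(FPKM + 0.1) minus the median of the macrophage markers in the same library, NLRP3 stood at -2.95 ± 0.20 in NC, -2.58 ± 0.37 in H8 and -2.72 ± 0.34 in H24 (SD, n = 3). For PYCARD the values were -3.35 ± 0.72, -3.23 ± 0.65 and -3.27 ± 0.76, and for CASP1 -3.10 ± 0.71, -2.45 ± 0.26 and -2.81 ± 0.45. None of these 3 genes moved by more than 0.65 between groups on this scale (exact permutation p from 0.2 to 1.0). This depended on the pseudocount: with 1 FPKM the H24 minus NC difference turned to -0.85 for NLRP3, -1.18 for PYCARD and -0.89 for CASP1 (exact permutation p = 0.1 each). Over the 9 libraries, the gap to the macrophage median at the smaller pseudocount ran from -3.16 to -2.35 for NLRP3, from -4.12 to -2.53 for PYCARD and from -3.90 to -2.23 for CASP1.

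IL1B, IL1A and TNF stood lower beside the macrophage markers in H24 than in NC. IL1B was at -4.26, -4.11 and -3.73 in NC, -4.68, -2.53 and -4.06 in H8, and -6.04, -5.26 and -7.02 in H24. The 3 H24 libraries lay below the other 6. The H24 minus NC difference was -2.07 for IL1B, -2.21 for IL1A and -2.23 for TNF, each with an exact permutation p of 0.1, the smallest possible. The H24 minus H8 difference was -2.35 for IL1B and -2.78 for IL1A (p = 0.1 each) and -1.90 for TNF (p = 0.3, exact permutation test). These 6 differences kept their sign in all 42 alternatives, which used a pseudocount of 1 FPKM or left out 1 library. A pseudocount shrinks the rise over NC of genes this low more than that of the markers. This holds for the 0.1 FPKM of the main values too. The H24 minus NC differences and their p are thus partly set by the pseudocount, and neither pseudocount tests their sign. Without H24 replicate 3 these differences were -1.62 for IL1B, -2.01 for IL1A and -1.60 for TNF. In edgeR's H24/NC fit the log2 fold changes were 2.30 for IL1B, 1.93 for IL1A and 2.49 for TNF, against a marker median of 4.83. Without H24 replicate 3 they were 1.72, 0.90 and 2.24 against 2.81, a smaller gap. No difference between H8 and NC exceeded 0.58 in size for these 3 genes (exact permutation p from 0.7 to 0.8). IL10 stood at -4.52 ± 0.28 in NC and -5.26 ± 0.25 in H24 (difference -0.74, exact permutation p = 0.1), and IL18 differed by 0.22 (p = 0.6). With a pseudocount of 1 FPKM these differences were -2.31 for IL10 and -1.68 for IL18 (exact permutation p = 0.1 each). IL10 was below 0.1 FPKM in every NC library, so the smaller pseudocount shrinks its rise too. In edgeR's H24/NC fit IL10 was at 4.81 against the marker median of 4.83. Without H24 replicate 3 it was at 3.69 against 2.81. IL6 stood at 0.96 ± 0.56 in NC and -2.24 ± 2.60 in H24 (difference -3.20, exact permutation p = 0.1). H24 replicate 3 was at -5.20, and without it the difference was -1.71. The level of IL6 itself was not lower in H24 by edgeR (log2 fold change 0.47, not called).

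**Figure D3:**
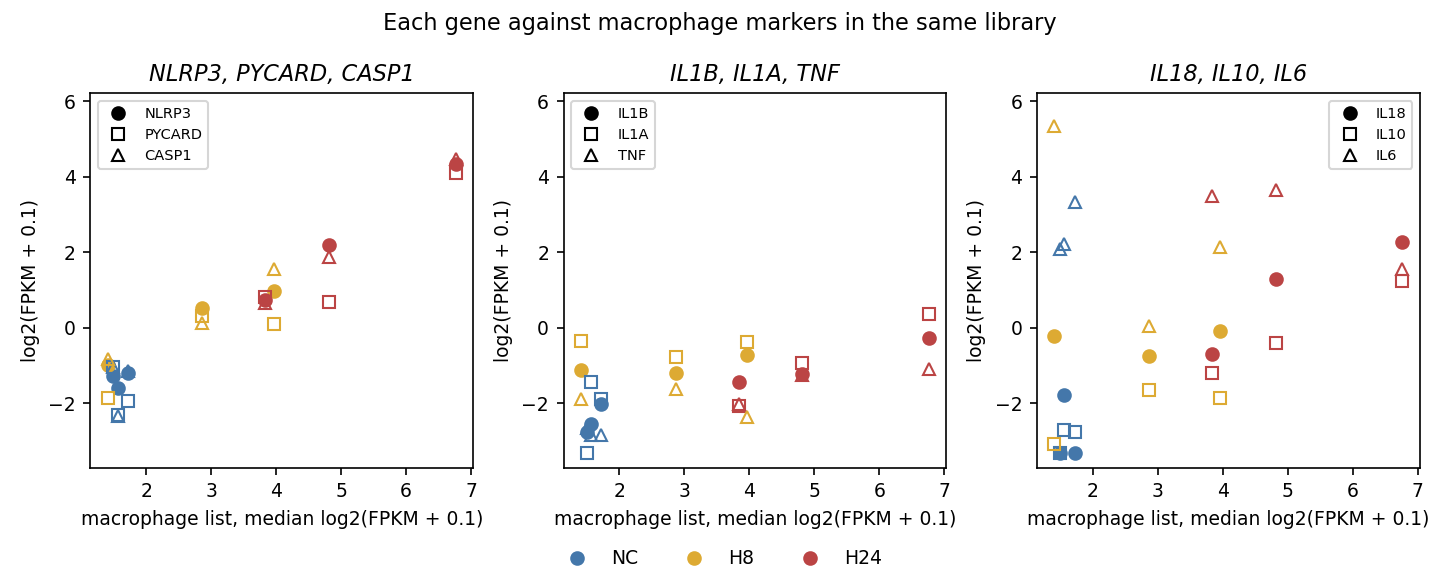
log2(FPKM + 0.1) of each gene (vertical axis) against the median log2(FPKM + 0.1) of 12 macrophage markers (horizontal axis), 1 point for each library, coloured by group. NLRP3, PYCARD and CASP1 are highest in H24 replicate 3, where the markers are highest, and lowest in NC libraries, IL1B, IL1A and TNF overlap between H8 and H24 while the markers go from 1.41 to 6.77, and IL6 is highest in H8 replicate 2, the library with the lowest marker median.

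In H8 replicate 2 the 9 genes did not share a position. Its macrophage median, 1.41, was the lowest of the 9 libraries, and NLRP3 (0.410 FPKM), PYCARD (0.176 FPKM), CASP1 (0.469 FPKM) and IL10 (0.0183 FPKM) were at their lowest within H8. IL1B (0.361 FPKM), IL18 (0.768 FPKM) and TNF (0.172 FPKM) were in the middle of their H8 values there, and IL1A (0.691 FPKM) and IL6 (40.7 FPKM) were at their highest within H8.

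Genes with the most similar profiles were sought for the members with a mean of at least 1 FPKM, as the root-mean-square difference of log2(FPKM + 0.1), each centred on its NC mean, over 9 libraries and 10723 named genes. For CASP1 the nearest were CD53, a tetraspanin of leukocytes (0.23), NCKAP1L, a haematopoietic actin regulator (0.27), and PDCD1LG2, the checkpoint ligand PD-L2 (0.28). NLRP3 was nearest to ARHGAP30 (0.264), PDCD1LG2 (0.264) and PLXNC1 (0.266), and PYCARD to the ion channel TRPV2 (0.29), the phospholipase PLCB2 (0.36) and the inhibitory receptor LAIR1 (0.36). IL18 and IL6 had no comparably close profile. Their nearest genes were GPR65 (0.67), the complement component C3 (0.69) and ISG20 (0.70) for IL18, and the protease ADAMTS4 (0.62), the kinase PIM3 (0.84) and the transcription factor SOX7 (0.87) for IL6. ADAMTS4, with 39.2 FPKM in H8 replicate 2 and 1.90 FPKM in H8 replicate 3, shared the highest and the lowest library with IL6. The profiles share their libraries and are given as a description.

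The receptors and relays of these cytokines were followed in lists. Over all genes tested, 9.95% were called higher in H24/NC, 5.11% in H8/NC and 7.22% in H24/H8. The counts of each list are to be read beside these shares, and no list was tested as a set. Of 8 tested genes among the IL-1 family ligands, receptors and inhibitors outside the 9, only the alarmin IL33 was up-regulated in H24/NC (3.12-fold, adjusted p = 0.319), and none of 7 in H8/NC or of 8 in H24/H8 (median log2 fold changes 0.14, 0.06 and 0.42). The receptor of IL-1, IL1R1, chosen after its values were seen, was at 36.3 ± 11.0 FPKM in NC, 33.9 ± 11.4 in H8 and 38.1 ± 13.5 in H24 (SD, n = 3; H24/NC log2 0.04, SE 0.37, adjusted p = 0.975). Downstream of the receptor, in the Myddosome and its relay, 2 of 12 genes were up-regulated in H24/NC and 1 of 12 in each other comparison, with median log2 fold changes of 0.34, 0.25 in H8/NC and 0.15 in H24/H8. IRAK2, a kinase that sustains the IL-1 signal, was called in all 3, at 1.60, 1.35 and 1.62 FPKM in NC, 6.85, 2.47 and 3.16 in H8, and 12.4, 8.36 and 33.6 in H24 (11.7-fold in H24/NC, adjusted p = 0.132). The groups did not overlap in any pair. IRAK4, the kinase upstream of it, was 2.06-fold higher in H24/NC (adjusted p = 0.285).

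Of 16 other inflammasome sensors, regulators and effectors, 4 were up-regulated in H24/NC, none of 15 in H8/NC and 1 of 16 in H24/H8 (median log2 fold changes 0.39, 0.03 and 0.58). NLRP1, a sensor that also feeds caspase-1, was 9.93-fold higher in H24/NC (adjusted p = 0.193), and P2RX7, the ATP-gated channel upstream of NLRP3, was 4.86-fold higher (adjusted p = 0.221). H24 replicate 3 carried much of both folds, with 10.0 FPKM of NLRP1 against 1.33 and 1.26 in the other H24 libraries and 15.4 FPKM of P2RX7 against 3.06 and 3.05; without it the folds were 3.04 and 2.06 and both were called. NLRC5, known as a regulator of MHC class I genes, was 2.62-fold higher in H24/NC and 2.32-fold higher in H24/H8 (adjusted p = 0.191 and adjusted p = 0.336). The remaining called gene was MEFV, the pyrin sensor (7.17-fold in H24/NC, adjusted p = 0.206), named after its values were seen. GSDMD, the pore protein cut by caspase-1, also chosen after its values were seen, was at 5.98 ± 0.99 FPKM in NC, 5.42 ± 0.89 in H8 and 9.12 ± 3.82 in H24 (SD, n = 3) and was not called (H24/NC log2 0.59, SE 0.33, adjusted p = 0.49).

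Among 18 TNF receptors, relay and processing genes, 5 were up-regulated in H24/NC, 2 in H8/NC and 3 in H24/H8, where 1 was down-regulated (median log2 fold changes 0.58, 0.21 and 0.72). TNFRSF1B, the TNF receptor of leukocytes and endothelium, was at 15.8, 26.9 and 18.4 FPKM in NC and 63.4, 62.4 and 150 FPKM in H24 (4.45-fold, adjusted p = 0.132). TNFAIP8L2, a negative regulator in immune cells, was 15.3-fold higher in H24/NC (adjusted p = 0.135), RHBDF2, which brings the TNF-releasing protease ADAM17 to the cell surface, was 3.92-fold higher (adjusted p = 0.209), and TNFAIP3, the feedback inhibitor A20, was 3.87-fold higher (adjusted p = 0.239). TNFAIP8L2, TNFRSF1B and RHBDF2 were also the 3 genes called higher in H24/H8. TNFAIP3 was already 4.15-fold higher in H8/NC (adjusted p = 0.244), where the groups overlapped. TNFAIP6, a hyaluronan-binding protein induced by TNF and IL-1, was at 4.04, 3.46 and 2.31 FPKM in NC, 12.7, 33.2 and 7.45 in H8, and 3.68, 3.50 and 4.999 in H24. It was 6.19-fold higher in H8 than in NC (adjusted p = 0.187) and 5.18-fold lower in H24 than in H8 (adjusted p = 0.336), with all H8 libraries above the other 6. LTB, which overlaps TNF, was the remaining called gene in H24/NC (3.82-fold, adjusted p = 0.331) and was named after its values were seen.

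Of the IL-6 and IL-10 receptors and relay genes, 3 of 16 were up-regulated in H24/NC and 2 of 17 in H8/NC, and 1 of 17 was down-regulated in H24/H8 (median log2 fold changes 0.33, -0.07 and 0.15). IL10RA, the ligand-binding chain of the IL-10 receptor, was at 3.21, 3.60 and 3.99 FPKM in NC, 22.7, 15.1 and 9.77 in H8, and 9.29, 7.99 and 42.5 in H24. It was higher than NC in all 6 fed libraries, 4.85-fold in H8/NC (adjusted p = 0.0808) and 5.48-fold in H24/NC (adjusted p = 0.183). OSM, an IL-6 family cytokine of myeloid cells, was 3.66-fold higher in H8/NC and 4.13-fold higher in H24/NC (adjusted p = 0.233 and adjusted p = 0.132), and SOCS1, a feedback inhibitor of cytokine signalling, was 2.66-fold higher in H24/NC (adjusted p = 0.356). The gene down-regulated in H24/H8 was IL11, named after its values were seen, which was at 0 FPKM in all 3 H24 libraries and at 0.241, 2.23 and 0 FPKM in H8, so no fold is given.

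Of the other interleukins, 5 of 7 tested were up-regulated in H24/NC, 1 of 5 in H8/NC and 3 of 7 in H24/H8 (median log2 fold changes 2.15, 0.27 and 2.01). Of the 22 listed, 18 were found, and those not tested fell below the expression filter. The filter averages both groups, so a low gene can pass through the group where it is high. These counts and medians depend in part on that, and the list was not counted without the filter. EBI3, a subunit of IL-27 and IL-35, was 10.3-fold higher in H24/NC (adjusted p = 0.322) with overlapping groups. IL16, a T cell attractant, was 4.43-fold higher in H24/NC and 5.66-fold higher in H24/H8 (adjusted p = 0.254 and adjusted p = 0.336). IL15, a growth factor of T and natural killer cells, was 2.67-fold higher in H24/NC and 3.92-fold higher in H24/H8 (adjusted p = 0.339 and adjusted p = 0.341). IL34, a ligand of the macrophage receptor CSF1R, was 2.67-fold higher in H8/NC and 2.71-fold higher in H24/NC (adjusted p = 0.24 and adjusted p = 0.267). IL27, the partner of EBI3, was the remaining called gene in H24/NC and H24/H8 (adjusted p = 0.329 and adjusted p = 0.341) and was named after its values were seen; it stood at 4.32 FPKM in H24 replicate 3 and at most 0.376 FPKM in the other libraries.

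The counts of these lists were also taken without H24 replicate 3. Over all genes, 946 of 14578 tested were then called higher in H24/NC and 547 of 14589 in H24/H8. In H24/NC the genes up-regulated were then 0 of 7 of the IL-1 family, 1 of 12 of the Myddosome (IRAK2), 4 of 15 of the other inflammasome genes, 3 of 18 of the TNF list (RHBDF2, TNFAIP8L2 and TNFRSF1B), 2 of 16 of the IL-6 and IL-10 list (IL10RA and OSM) and 1 of 7 of the other interleukins (IL34). In H24/H8 they were 0 of 7, 1 of 12, 0 of 15, 1 of 18, 1 of 17 and 2 of 6 in the same order. EBI3, IL27, IL33 and TNFAIP3 were among the genes no longer called in H24/NC. TNFAIP6 was still called lower in H24/H8, and so was IL10RA in this fit.

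**Figure D4:**
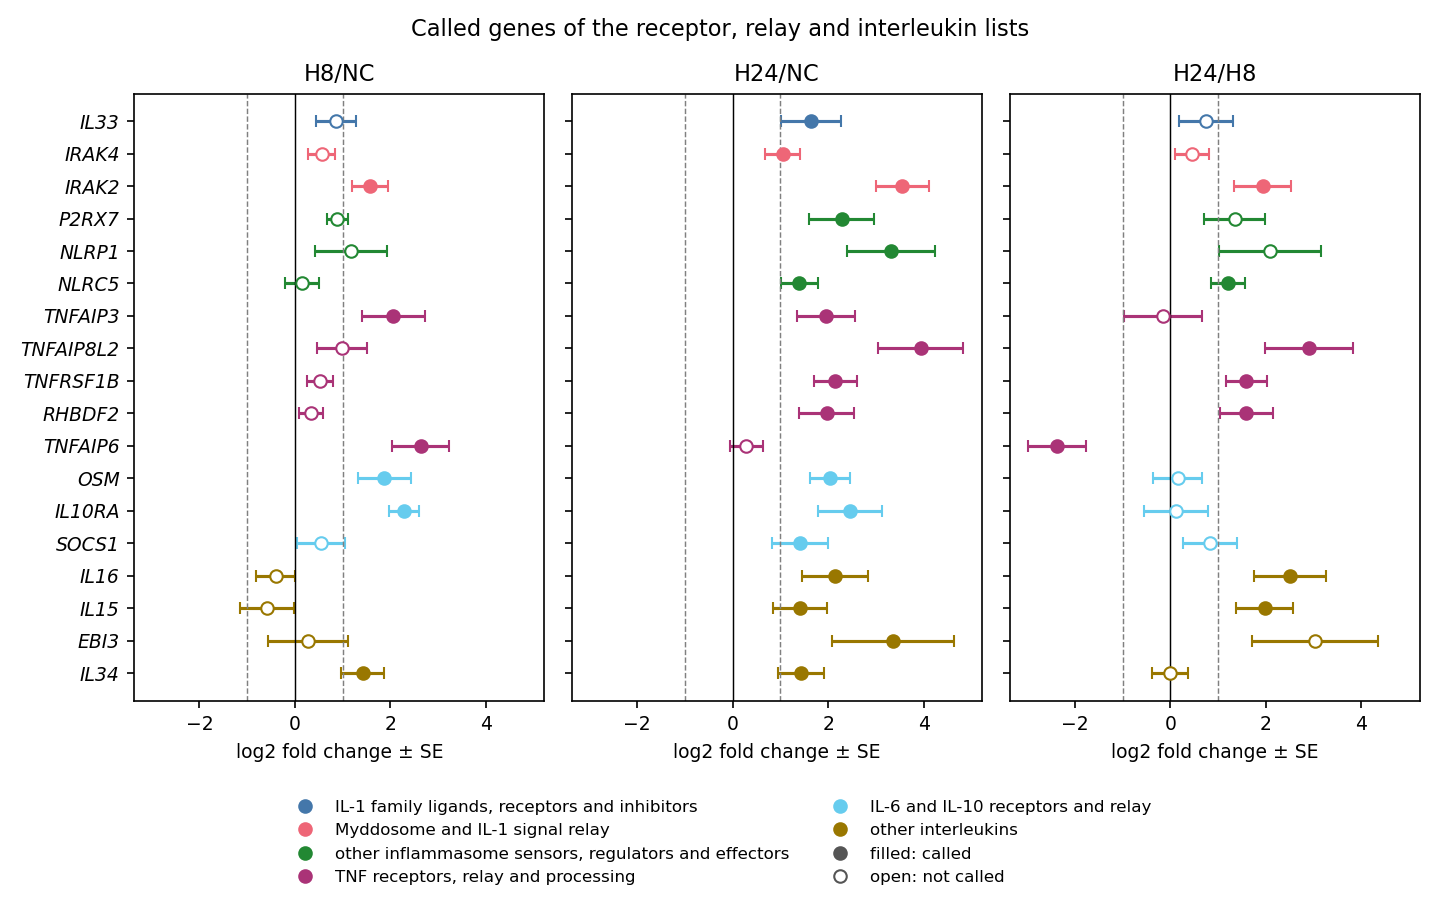
log2 fold change (points) with standard error (bars) of the named called genes of the 6 receptor, relay and interleukin lists in H8/NC, H24/NC and H24/H8, coloured by list; filled points were called. IRAK2 is filled in all 3 panels, IL10RA, OSM, IL34 and TNFAIP3 are filled in H8/NC and H24/NC and lie near 0 in H24/H8, and TNFAIP6 is high in H8/NC and negative in H24/H8.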

How the data were processed

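The authors extracted RNA from the abdominal aorta, selected poly(A) RNA and sequenced 9 paired-end libraries. Per the study's methods, clean reads were mapped to the pig genome with HISAT2 (version 2.0) and assembled with StringTie (version 1.3.0). The authors computed FPKM with StringTie and deposited, beside the FPKM values, an estimated count for each of 21357 genes, listed as whole numbers; how each estimated count was derived is not given in the sources used here. The labels' tool list also names Bowtie 0.12.2 and a mouse genome build, neither of which belongs to pig. Libraries held 44094263 to 75787978 counts, and intervals of depth cover counting error only.

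Counts were tested with edgeR 4.0.16 (R 4.3.3; TMM, quasi-likelihood F test, two-sided) between 2 groups of 3 libraries, over genes with a mean of at least 0.1 FPKM in the 6 libraries. A gene was called at a log2 fold change beyond 1 and p below 0.05, and Benjamini-Hochberg adjusted p-values covered all genes tested. Within-library values used log2(FPKM + 0.1) and exact permutation tests (scipy 1.17.1). The fits were tested on simulated data. The labels give separate replicates; p-values measure the spread between these libraries. No pair of libraries was identical. Replicate numbers were not used as pairs (correlation of deviations between same-numbered libraries -0.060 to 0.102).

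The alternatives were DESeq2 1.42.0, RLE factors, library size alone, no filter, a filter of 1 FPKM, limma 3.58.1 on log2(FPKM + 0.1) and log2(FPKM + 1), one joint fit of all 9 libraries, the replicate number as a block, and every library dropped in turn. Genes were matched by symbol or, for unnamed rows, by NCBI gene ID through RefSeq. The genes, the 6 pathway lists and the 8 marker lists were chosen with earlier results of these data known. The B cell list is not reported here. From each list and comparison at most 4 called genes were named, those of the largest fold change with a mean of at least 1 FPKM; the 3 genes of the nearest profile were named for each member with a mean of at least 1 FPKM. A ratio of IL1RN to IL1B had been planned and was not computed, since IL1RN was not analysed here. No sequence is shown.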

Additional observations from a re-analysis of the deposited data

How the results depend on the processing

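The number of the 9 genes called in H24/NC (7) was 4 with a filter of 1 FPKM (5 tested) and 4 by limma on log2(FPKM + 1), and was 7 in every fit without 1 library. In H8/NC (6) it was 0 under both of those settings (1 tested with the filter) and 3 to 6 without 1 library. In H24/H8 (3) it was 5 with library size alone, 0 by limma on log2(FPKM + 1), and 0 to 5 without 1 library. Over all genes, limma on log2(FPKM + 1) called 855, 343 and 694 genes against 1700, 1059 and 1519; the filter of 1 FPKM called 618 in H8/NC; leaving out 1 library gave 1132 to 2251, 845 to 1244 and 804 to 2091. The larger pseudocount shrinks the change of low genes by construction; other causes were not tested.

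DESeq2 called 954, 616 and 650 genes at an adjusted p below 0.05, against 0, 4 and 2 by edgeR, among them 6, 3 and 1 of the 9 genes; it gave no p for PYCARD in H24/NC and H24/H8. The replicate block called 7, 5 and 3 of the 9 genes (1364, 950 and 1275 genes over all); with its own number a library correlated best in 4 of 9 cases.

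Signs turned in genes that were not called. IL6 became -0.045 (limma, 0.1) and -1.17 (without H8 replicate 2) in H8/NC, and 0.39 (limma, 0.1), 0.19 (limma, 1), 0.36 (replicate block) and 1.63 (without H8 replicate 2) in H24/H8. IL1B in H24/H8 became 0.16 (library size alone), 0.038 and 0.031 (limma, 0.1 and 1), 0.0088 (all 9 libraries), 0.15 and 0.18 (without H24 replicate 1 or 2) and 0.13 (without H8 replicate 1), and IL1A 0.14 (without H24 replicate 2). Without 1 library the ranges were -1.17 to 2.09 for IL6 in H8/NC and, in H24/H8, -1.63 to 1.63 for IL6, -0.59 to 0.18 for IL1B and -1.30 to 0.14 for IL1A. Of the other within-library values, 156 of 189 alternatives kept the sign. Counts of 0 to 62 in NC for IL1A, IL1B, IL18, TNF and IL10 limit how well their folds over NC are known.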

Other observations

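By the pathway annotation deposited with the table, examined after the other results were seen, 7 of the 9 genes belong to the NOD-like receptor signalling pathway (IL1B, IL18, CASP1, PYCARD, NLRP3, TNF and IL6). Of its tested genes, 27 of 128 were up-regulated in H24/NC, 13 of 126 in H8/NC and 15 of 127 in H24/H8, with median log2 fold changes of 0.26, 0.11 and 0.18, beside 9.95%, 5.11% and 7.22% of all genes called higher. The necroptosis pathway, which holds 6 of the 9, had 18 of 124, 8 of 119 and 8 of 124 genes up-regulated. The counts of both pathways include genes of the 9. IL1B, CASP1, PYCARD, NLRP3 and TNF were among the called genes of both in H24/NC and H8/NC. IL18 was a further one in the NOD-like receptor pathway. In H24/H8 they included PYCARD and NLRP3. The counts are thus no support separate from the 9 genes, and shares without these genes were not computed.

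In H8 replicate 2, which had few macrophage markers and the highest IL6, other genes also reached their highest level within H8: TNFAIP6 at 33.2 FPKM, TNFAIP3 at 18.9 FPKM and IL11 at 2.23 FPKM. These were chosen after the values were seen, and no cause was tested.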
